A study of Homo sapiens with 9 samples.

Results

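The mitochondrial ribosomal protein genes were taken as the genes whose probe sets carry a single platform gene symbol made of MRPL or MRPS and a number. Each gene was represented by its probe set with the highest mean over the 9 arrays. This gave 75 genes of the 19775 with a single-symbol probe set, 48 named for the large subunit and 27 for the small subunit. RefSeq lists 77 symbols of this form, and MRPL53 and MRPS24, whose probe sets carry several symbols, were not analysed here. All 75 genes passed the filter on low signals. Each lay above the brightest of 27 control probe sets for bacterial transcripts on all 9 arrays, with a lowest signal of 273.

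Expression was measured in LiSa-2, a human liposarcoma cell line that all groups share. There were 3 groups of 3 samples, with 1 array per sample. HAase 24 h cells were given 400 µg/mL of hyaluronidase from bovine testis (HAase), which cuts the matrix sugar hyaluronan, for 24 h. HAase 6 h cells were given the same dose for 6 h, and PBS cells, given phosphate-buffered saline, were taken at 24 h. The PBS arrays share no time with the HAase 6 h arrays, so enzyme and time of harvest cannot be told apart in that comparison. Between HAase 24 h and HAase 6 h, length of treatment and time of harvest likewise cannot be told apart. No group received inactivated enzyme. The labels do not say whether samples of a group came from separate cultures, so the spread behind each p-value is that of these samples alone and may be technical. In bulk RNA, fewer cells of a type and less RNA per cell cannot be told apart.

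The mitochondrial ribosome translates the few proteins that mitochondrial DNA encodes, which are core parts of the respiratory chain and of ATP synthase. Its proteins are all encoded in the nucleus, made in the cytosol and imported. Some descend from bacterial ribosomal proteins, while others are found only in mitochondrial ribosomes. In adipose cells, mitochondria supply ATP and carbon precursors for lipid synthesis and oxidise fatty acids.

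Of the mitochondrial ribosomal protein genes called changed after HAase, most were lower, at both times and in both subunits, and about as many genes were not called as were. At HAase 24 h, 32 of the 75 genes fell and 5 rose relative to PBS, at an adjusted p under 0.05 in limma. Of all 13842 genes tested, 22.8% were called lower and 17.5% higher. At HAase 6 h, 35 members fell and 4 rose, against 27.4% of all genes called lower and 15% called higher. The median log2 fold change of the members was -0.14 at HAase 24 h and -0.18 at HAase 6 h, beside medians of -0.03 and -0.08 over all genes tested. No member changed 2-fold in any comparison, while 8.25% of all genes did so at 24 h and 6.6% at 6 h. HAase and PBS arrays did not overlap for 48 members at HAase 24 h and for 53 at HAase 6 h, where 52% and 54.2% of all genes were likewise separated. Bright genes were called more often. Among the 9888 genes above the 50th percentile of signal, 30.4% were lower at 24 h and 36.5% at 6 h, and 44% and 49.3% of the members were lower in that fit.

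**Figure D1:**
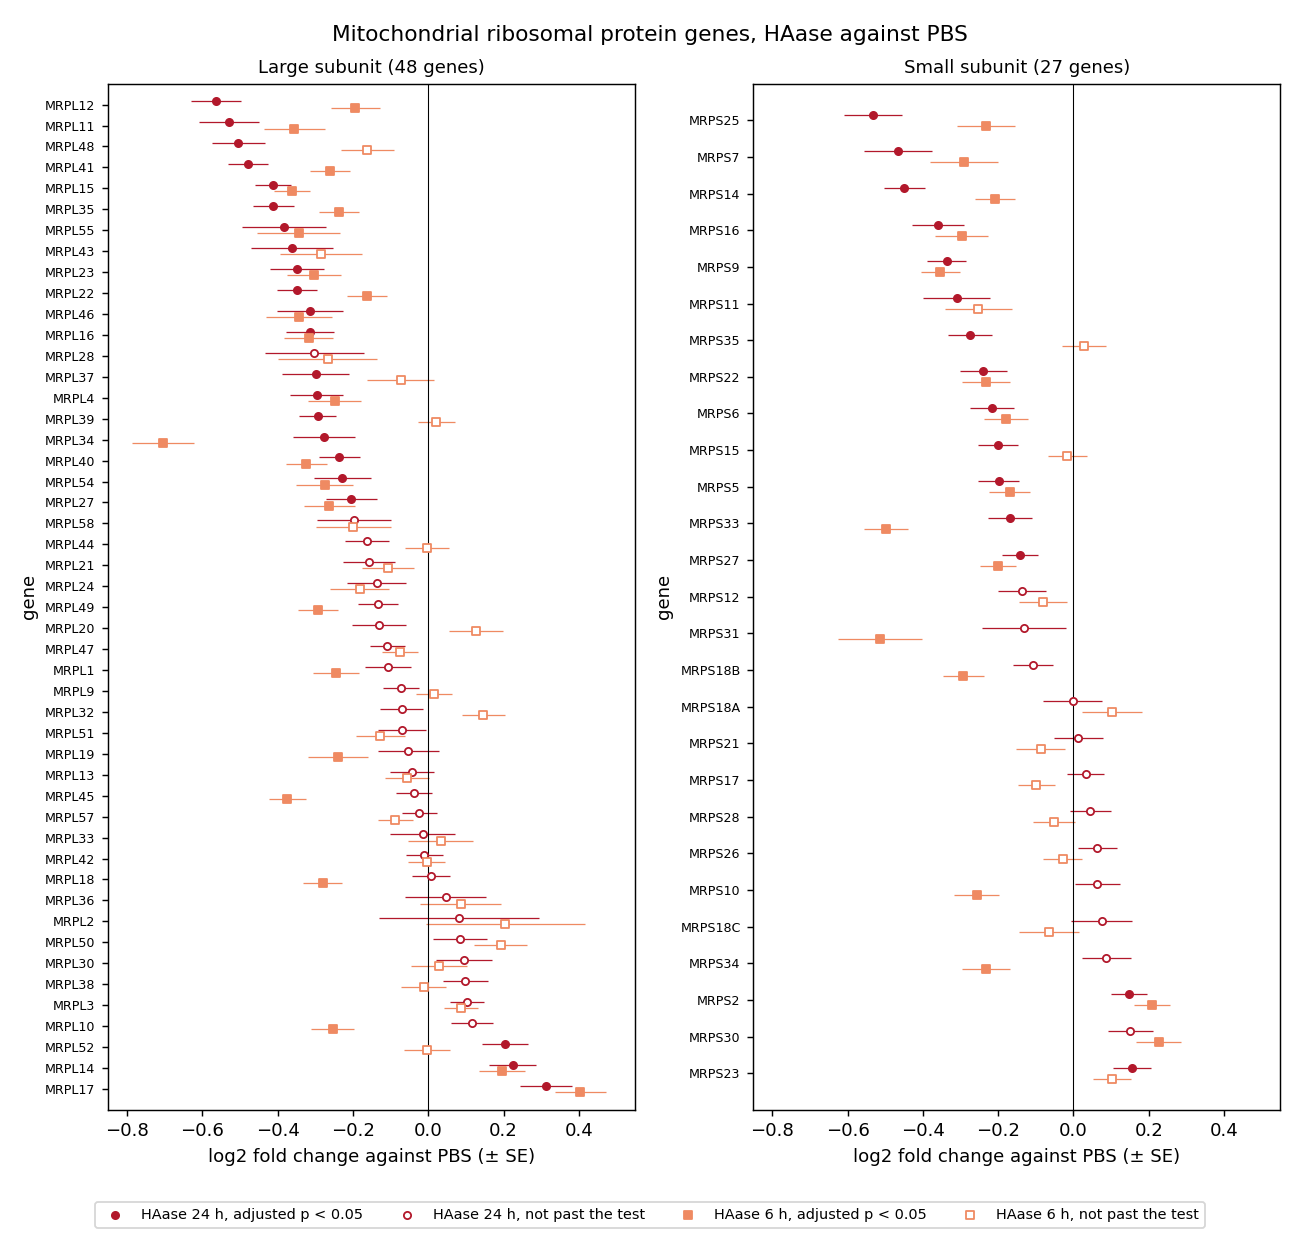
Log2 fold change against PBS (x axis, with standard error) of the 48 large subunit and 27 small subunit genes (y axis, by symbol), circles for HAase 24 h and squares for HAase 6 h, filled where the adjusted p was under 0.05. Most filled points lie left of 0, from MRPL12 at -0.56 for HAase 24 h and MRPL34 at -0.70 for HAase 6 h to MRPL17 at 0.31 and 0.40.

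Among the 48 large subunit genes, 19 fell and 3 rose at HAase 24 h, and 21 fell and 2 rose at HAase 6 h. Of the 27 small subunit genes, 13 fell and 2 rose at HAase 24 h, and 14 fell and 2 rose at HAase 6 h. The median log2 fold change at HAase 24 h was -0.14 in either subunit; with all probe sets of a gene averaged it was -0.14 in the large but -0.0521 in the small subunit. At HAase 6 h it was -0.17 in the large and -0.18 in the small subunit. The mean of the large subunit minus that of the small, relative to PBS, was -0.04, -0.03 and -0.003 on the HAase 24 h arrays. It was 0.007, 0.01 and 0.02 on the HAase 6 h arrays and 0.01, -0.02 and 0.008 on the PBS arrays. The values of HAase 24 h and HAase 6 h did not overlap each other, and both overlapped those of PBS. MRPS18A and MRPS30 carry small subunit names but sit in the large subunit in structures of the human mitoribosome. Counted there, 19 of 50 large and 13 of 25 small subunit genes fell at HAase 24 h.

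Members of bacterial descent and mitochondria-specific members gave like shares at 24 h. Of the 46 members homologous to bacterial ribosomal proteins, 19 fell and 3 rose at HAase 24 h, and 13 of the 29 mitochondria-specific members fell and 2 rose. At HAase 6 h, 23 of the 46 homologues fell and 3 rose, and 12 of the 29 mitochondria-specific members fell and 1 rose. The median log2 fold changes were -0.13 for homologues and -0.14 for mitochondria-specific members at 24 h, and -0.18 and -0.16 at 6 h.

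**Figure D2:**
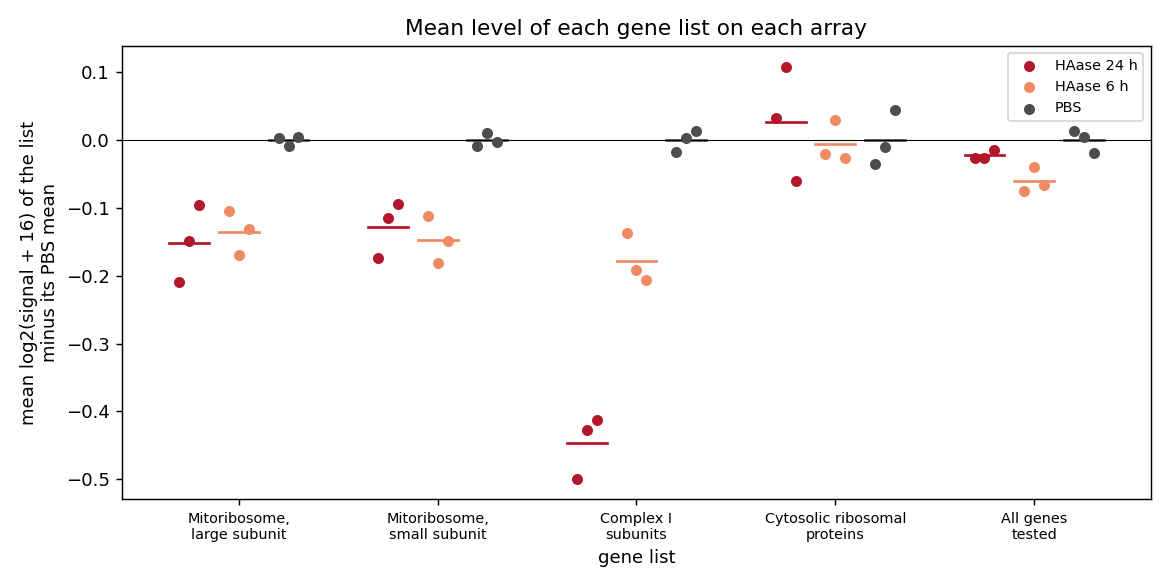
Mean log2(signal + 16) of each gene list on each array minus the list's PBS mean (y axis), for 5 lists (x axis), with a point per array and a line at the group mean; HAase 24 h stands left, HAase 6 h in the middle and PBS at the right of each list. All 6 HAase arrays lie below the 3 PBS arrays for either mitoribosomal subunit, and complex I subunits lie at -0.50, -0.43 and -0.41 on the HAase 24 h arrays.

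The promoters of 67 of the 75 members were taken from RefSeq's promoter table (GRCh38.p14). The windows ran from 250 bases before to 50 bases after the first listed start. Promoters on chromosome 8 were left out of every set, that of all tested genes included. MRPL13, MRPL15 and MRPS28, which lie there, were therefore not searched, and MRPL15 fell at both times. MRPL2, MRPL10, MRPL21, MRPL23 and MRPL35, on other chromosomes, had no promoter in the table and were not searched either. Of these, MRPL23 and MRPL35 fell at both times and MRPL10 at 6 h. The ETS motif CCGGAAG, the kind of sequence that the factor GABP binds, was searched on both strands. It lay in 28 of the 67 member promoters, or 41.8%, against 18% of the 11167 promoters of tested genes in the table. Of its 37 matches, 32 began before the start and 22 lay within 60 bases before it. It was found in 9 of the 29 members lower at HAase 24 h (31%) and in 19 of the 38 others (50%). For HAase 6 h it was found in 10 of the 31 members lower there (32.3%) and in 18 of the 36 others (50%). At both times the share was lower among the members that fell than among the others, which was not tested.

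The long form of the YY1 motif lay in 9 member promoters (13.4%) against 1.85% of those of tested genes, and 8 of its 9 matches began after the start. Its core ATGGCGG, which the long form contains, lay in 23 (34.3%) against 9.6%. The palindromic NRF1 motif lay in 1 member promoter, and with 1 base of its centre left free in 8, or 11.9% against 11%. The E-box CACGTG, a site of the MYC family, lay in 6 (8.96%) against 9.9%. All were searched on both strands, and a match is only a description of the letters.

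The 90 bases before the start are shown for 8 members that the results below turn on, with each ETS or NRF1 match in capitals. MRPL12 and MRPL48 fell furthest below their HAase 6 h level at 24 h, MRPL34, MRPS31, MRPS34 and MRPS10 were lowest at 6 h, MRPL40 fell at both times and MRPL17 rose at both. They lie, each read 5′ to 3′ on its own strand, at chr17:81703277-81703366 (MRPL12, plus strand), chr11:73787784-73787873 (MRPL48, plus), chr19:17292483-17292572 (MRPL34, plus), chr13:40771191-40771280 (MRPS31, minus), chr16:1773135-1773224 (MRPS34, minus), chr6:42217862-42217951 (MRPS10, minus), chr22:19432455-19432544 (MRPL40, plus) and chr11:6683341-6683430 (MRPL17, minus) of GRCh38.p14.
MRPL12: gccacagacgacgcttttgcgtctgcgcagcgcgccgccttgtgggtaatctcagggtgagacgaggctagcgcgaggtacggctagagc
MRPL48: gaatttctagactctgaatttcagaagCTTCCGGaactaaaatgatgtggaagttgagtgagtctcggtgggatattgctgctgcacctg
MRPL34: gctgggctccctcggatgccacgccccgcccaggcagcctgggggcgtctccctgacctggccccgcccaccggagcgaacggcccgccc
MRPS31: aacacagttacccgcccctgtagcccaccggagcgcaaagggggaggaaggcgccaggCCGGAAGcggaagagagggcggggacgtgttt
MRPS34: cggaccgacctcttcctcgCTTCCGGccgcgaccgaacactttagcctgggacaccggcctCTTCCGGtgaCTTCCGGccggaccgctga
MRPS10: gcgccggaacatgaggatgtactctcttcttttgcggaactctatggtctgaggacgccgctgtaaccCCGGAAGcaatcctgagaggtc
MRPL40: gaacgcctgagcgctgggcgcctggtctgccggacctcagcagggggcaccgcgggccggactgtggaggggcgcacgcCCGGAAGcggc
MRPL17: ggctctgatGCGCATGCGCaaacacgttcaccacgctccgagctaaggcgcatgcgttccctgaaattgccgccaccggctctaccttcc

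In these windows the match began 63 bases before the start in MRPL48, 32 in MRPS31, 22 in MRPS10, 11 in MRPL40, and 71, 29 and 19 in MRPS34. MRPL12 and MRPL34, which had the largest falls at 24 h and at 6 h, held no ETS or NRF1 match in these 90 bases, which says only that the letters are not there. MRPL17 held the NRF1 match 81 bases before its start.

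The stalk of the large subunit, where translation factors dock, held the largest fall at HAase 24 h. Signals below are in order of replicate number. MRPL12, the stalk protein related to bacterial L7/L12 and also known to bind the mitochondrial RNA polymerase, had 2483, 2480 and 2755 at HAase 24 h, 3470, 3159 and 3357 at HAase 6 h, and 3971, 3774 and 3679 in PBS. The 3 groups did not overlap and stood in the order HAase 24 h, HAase 6 h, PBS, lowest first. Its log2 fold change was -0.56 ± 0.07 (SE, n = 3 each, limma adjusted p = 0.000276) at 24 h and -0.19 ± 0.07 (limma adjusted p = 0.0457) at 6 h. With all its probe sets averaged it was -0.28 at 24 h (limma adjusted p = 0.198) and -0.09 at 6 h (limma adjusted p = 0.701); the other probe set is dim, with a mean signal of 85.8. The call at 6 h was lost under 13 of 19 alternative settings.

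MRPL11, a protein of the stalk base, had 1732, 1898 and 1951 at HAase 24 h, 2202, 2069 and 2028 at HAase 6 h, and 2908, 2735 and 2445 in PBS. All HAase arrays lay below all PBS arrays. It fell by 0.53 ± 0.08 at 24 h (limma adjusted p = 0.00117) and by 0.36 ± 0.08 at 6 h (limma adjusted p = 0.00858) on the log2 scale. MRPL10, which anchors the MRPL12 copies, had 2349, 2308 and 2402 at HAase 24 h, 1861, 1702 and 1894 at HAase 6 h, and 2216, 2188 and 2110 in PBS. The HAase 6 h arrays were the lowest and the HAase 24 h arrays the highest, so the stalk proteins did not move as a block. MRPL10 fell at 6 h by 0.25 ± 0.06 (limma adjusted p = 0.00793), while at 24 h its value was 0.12 ± 0.06 (limma adjusted p = 0.146).

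In the central protuberance, the crown of the large subunit that faces the small subunit head, 5 of 8 members (62.5%) fell at each time. Of all genes, 22.8% fell at 24 h and 27.4% at 6 h, and of all members 42.7% and 46.7%. MRPL48 is a mitochondria-specific protein of this region. Its signal was 1465, 1441 and 1644 at HAase 24 h, 1945, 1839 and 1992 at HAase 6 h, and 2269, 2077 and 2121 in PBS. The groups did not overlap. MRPL48 fell by 0.50 ± 0.07 at 24 h (limma adjusted p = 0.000713), and its value at 6 h was -0.16 ± 0.07 (limma adjusted p = 0.0994). MRPL40 and MRPL46, also of this region, fell at both times: by 0.24 and 0.31 at HAase 24 h and by 0.32 and 0.34 at HAase 6 h. MRPL55 fell by 0.38 ± 0.11 at 24 h and by 0.34 ± 0.11 at 6 h, calls that were lost under 6 and 10 of the 19 alternative settings.

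MRPL18, the relative of the bacterial protein that binds 5S rRNA, behaved otherwise. It had 4945, 5071 and 5272 at HAase 24 h, 4332, 4054 and 4128 at HAase 6 h, and 5066, 4952 and 5189 in PBS. The HAase 6 h arrays lay below all others, and the HAase 24 h and PBS arrays overlapped. It fell by 0.28 ± 0.05 at 6 h (limma adjusted p = 0.00319), with 0.01 ± 0.05 at 24 h. MRPL58, a release factor that became a ribosomal protein and frees stalled chains, gave -0.20 ± 0.10 at either time, with limma adjusted p of 0.156 at 24 h and 0.147 at 6 h, so no change was called.

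Along the polypeptide exit, the members listed were MRPL22, MRPL23, MRPL24, MRPL45 and MRPL47. This list may not be complete and does not hold MRPL17, which rose at both times. Of the 5 listed, 2 fell at HAase 24 h and 3 at HAase 6 h. These are 40% and 60%, beside 22.8% and 27.4% of all genes and 42.7% and 46.7% of all members. MRPL22, a tunnel wall protein, fell by 0.35 ± 0.05 at 24 h (limma adjusted p = 0.00115) and by 0.16 ± 0.05 at 6 h (limma adjusted p = 0.0389). MRPL45, which binds the inner membrane beside the exit, had 1906, 1975 and 1990 at HAase 24 h, 1548, 1540 and 1550 at HAase 6 h, and 2057, 1924 and 2048 in PBS. Its HAase 6 h arrays stood apart below the rest, and those of HAase 24 h overlapped PBS. MRPL45 fell by 0.37 ± 0.05 at 6 h (limma adjusted p = 0.000549), and its value at 24 h was -0.04 ± 0.05 (limma adjusted p = 0.582). OXA1L, the inner membrane insertase that receives the chain there, is no ribosomal protein and fell by 0.51 ± 0.07 at 24 h and by 0.37 ± 0.07 at 6 h (limma adjusted p = 0.000794 and 0.00443).

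The remaining large subunit genes with the largest falls were MRPL41, MRPL15 and MRPL35 at 24 h and MRPL34 at 6 h. MRPL41, a mitochondria-specific protein, had 5033, 5337 and 5590 at HAase 24 h, 6258, 6067 and 6245 at HAase 6 h, and 7397, 7545 and 7313 in PBS. MRPL15, a bacterial homologue, had 6424, 6165 and 6401 at HAase 24 h, 6716, 6457 and 6505 at HAase 6 h, and 8254, 8342 and 8695 in PBS. Neither gene's HAase arrays overlapped its PBS arrays, and all HAase 24 h arrays of either gene lay below its HAase 6 h arrays. Between the times MRPL41 was called, at -0.22 (limma adjusted p = 0.0156). MRPL15, at -0.05, was not (limma adjusted p = 0.463). The log2 fold changes at 24 h were -0.48 ± 0.05 for MRPL41 (limma adjusted p = 0.000214) and -0.41 ± 0.05 for MRPL15 (limma adjusted p = 0.000268). At 6 h they were -0.26 ± 0.05 and -0.36 ± 0.05 (limma adjusted p = 0.00548 and 0.000614). MRPL35 fell by 0.41 ± 0.05 at 24 h and by 0.24 ± 0.05 at 6 h.

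MRPL34, a small homologue of bacterial L34, had the largest fall of any member at 6 h. Its signal was 2435, 2600 and 2660 at HAase 24 h, 1950, 1699 and 2079 at HAase 6 h, and 3018, 3050 and 3266 in PBS. The groups did not overlap, with HAase 6 h lowest and HAase 24 h between it and PBS. It fell by 0.70 ± 0.08 at 6 h (limma adjusted p = 0.000332), which makes its signal 1.63-fold lower, and by 0.28 ± 0.08 at 24 h (limma adjusted p = 0.0291).

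In the head of the small subunit, the lobe that contacts transfer RNAs, 5 of 7 members fell at HAase 24 h and 6 at HAase 6 h. These are 71.4% and 85.7%, beside 22.8% and 27.4% of all genes and 42.7% and 46.7% of all members. MRPS7, a homologue of the bacterial protein that starts head assembly, had 2622, 3121 and 3246 at HAase 24 h, 3412, 3338 and 3358 at HAase 6 h, and 4072, 4466 and 3870 in PBS. MRPS14, also of the head, had 4518, 4408 and 4270 at HAase 24 h, 5231, 5366 and 5006 at HAase 6 h, and 5744, 6162 and 6129 in PBS. For both, every HAase 24 h array lay below every HAase 6 h array and these below every PBS array. Between the times MRPS14 was called, at -0.24 (limma adjusted p = 0.0111). MRPS7, at -0.17, was not (limma adjusted p = 0.187). MRPS7 fell by 0.47 ± 0.09 at 24 h (limma adjusted p = 0.00421) and MRPS14 by 0.45 ± 0.05 (limma adjusted p = 0.000342). At 6 h they fell by 0.29 ± 0.09 and 0.21 ± 0.05 (limma adjusted p = 0.0328 and 0.0161). MRPS9 fell by 0.34 ± 0.05 at 24 h and by 0.35 ± 0.05 at 6 h.

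The mitochondria-specific head proteins MRPS31 and MRPS33 were lowest at 6 h. MRPS31 had 2058, 1908 and 1650 at HAase 24 h, 1640, 1284 and 1377 at HAase 6 h, and 2072, 2126 and 1941 in PBS. MRPS33 had 2680, 2657 and 2824 at HAase 24 h, 2164, 2075 and 2251 at HAase 6 h, and 2960, 3005 and 3218 in PBS. For both genes the HAase 6 h arrays lay below all others, and the HAase 24 h arrays of MRPS31 overlapped PBS. MRPS31 fell by 0.51 ± 0.11 at 6 h (limma adjusted p = 0.00711), with -0.13 ± 0.11 at 24 h (limma adjusted p = 0.394). MRPS33 fell by 0.50 ± 0.06 at 6 h (limma adjusted p = 0.000312) and by 0.17 ± 0.06 at 24 h (limma adjusted p = 0.0489).

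MRPS35, another mitochondria-specific head protein, showed the other order. It had 3226, 3371 and 3133 at HAase 24 h, 4054, 4020 and 3932 at HAase 6 h, and 3692, 3950 and 4151 in PBS. Only the HAase 24 h arrays stood apart, below the rest. It fell by 0.28 ± 0.06 at 24 h (limma adjusted p = 0.00674), with 0.03 ± 0.06 at 6 h. MRPL39, a large subunit protein related to threonyl-tRNA synthetase, behaved alike: 3779, 3873 and 4028 at HAase 24 h, 4928, 4700 and 4917 at HAase 6 h, and 4667, 4869 and 4790 in PBS. It fell by 0.29 ± 0.05 at 24 h (limma adjusted p = 0.00205), with 0.02 ± 0.05 at 6 h.

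MRPS25, a mitochondria-specific protein of the small subunit, had its largest fall at 24 h. Its signal was 2433, 2357 and 2741 at HAase 24 h, 3334, 3069 and 2881 at HAase 6 h, and 3639, 3565 and 3694 in PBS. The groups did not overlap. It fell by 0.53 ± 0.08 at 24 h (limma adjusted p = 0.000912) and by 0.23 ± 0.08 at 6 h (limma adjusted p = 0.0421).

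Few members rose. MRPL17, a homologue of bacterial L17, had 2128, 2248 and 2400 at HAase 24 h, 2578, 2294 and 2354 at HAase 6 h, and 1854, 1847 and 1743 in PBS. Both HAase groups lay above PBS and overlapped each other. It rose by 0.31 ± 0.07 at 24 h (limma adjusted p = 0.00758) and by 0.40 ± 0.07 at 6 h (limma adjusted p = 0.00218). MRPL14, a homologue of a bacterial protein at the face between the subunits, rose by 0.22 ± 0.06 at 24 h (limma adjusted p = 0.021) and by 0.20 ± 0.06 at 6 h (limma adjusted p = 0.0342), calls that were lost under 6 and 10 of the 19 alternatives. MRPS2, homologous to bacterial S2, rose by 0.15 ± 0.05 at 24 h, a call lost under 13 of the 19, and by 0.21 ± 0.05 at 6 h. MRPL52 and MRPS23, both mitochondria-specific, rose at 24 h by 0.20 ± 0.06 and 0.15 ± 0.05 (limma adjusted p = 0.0298 and 0.0409), with -0.004 ± 0.06 and 0.10 ± 0.05 at 6 h. Of the 5 rises at 24 h, that of MRPL17 alone was kept under all 19 alternatives. Without PBS replicate 1, HAase 24 h replicate 2 or HAase 24 h replicate 3 it was the single rise at 24 h, and 2 members rose without PBS replicate 2 or 3 and 3 without HAase 6 h replicate 1 or 3. At 6 h, where 4 rose, 2 did so without PBS replicate 1, PBS replicate 3, HAase 6 h replicate 2 or HAase 6 h replicate 3.

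MRPS30, a large subunit protein despite its symbol, had 5299, 5541 and 5688 at HAase 24 h, 5602, 5880 and 5932 at HAase 6 h, and 4932, 5261 and 4694 in PBS. The HAase arrays all lay above PBS. It rose by 0.23 ± 0.06 at 6 h (limma adjusted p = 0.0177), and its value at 24 h was 0.15 ± 0.06 (limma adjusted p = 0.0811). Its other 2 probe sets went the other way at 24 h, at -0.29 and -0.27, and at 6 h stood at -0.25 and 0.14, so the direction of MRPS30 is uncertain.

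**Figure D3:**
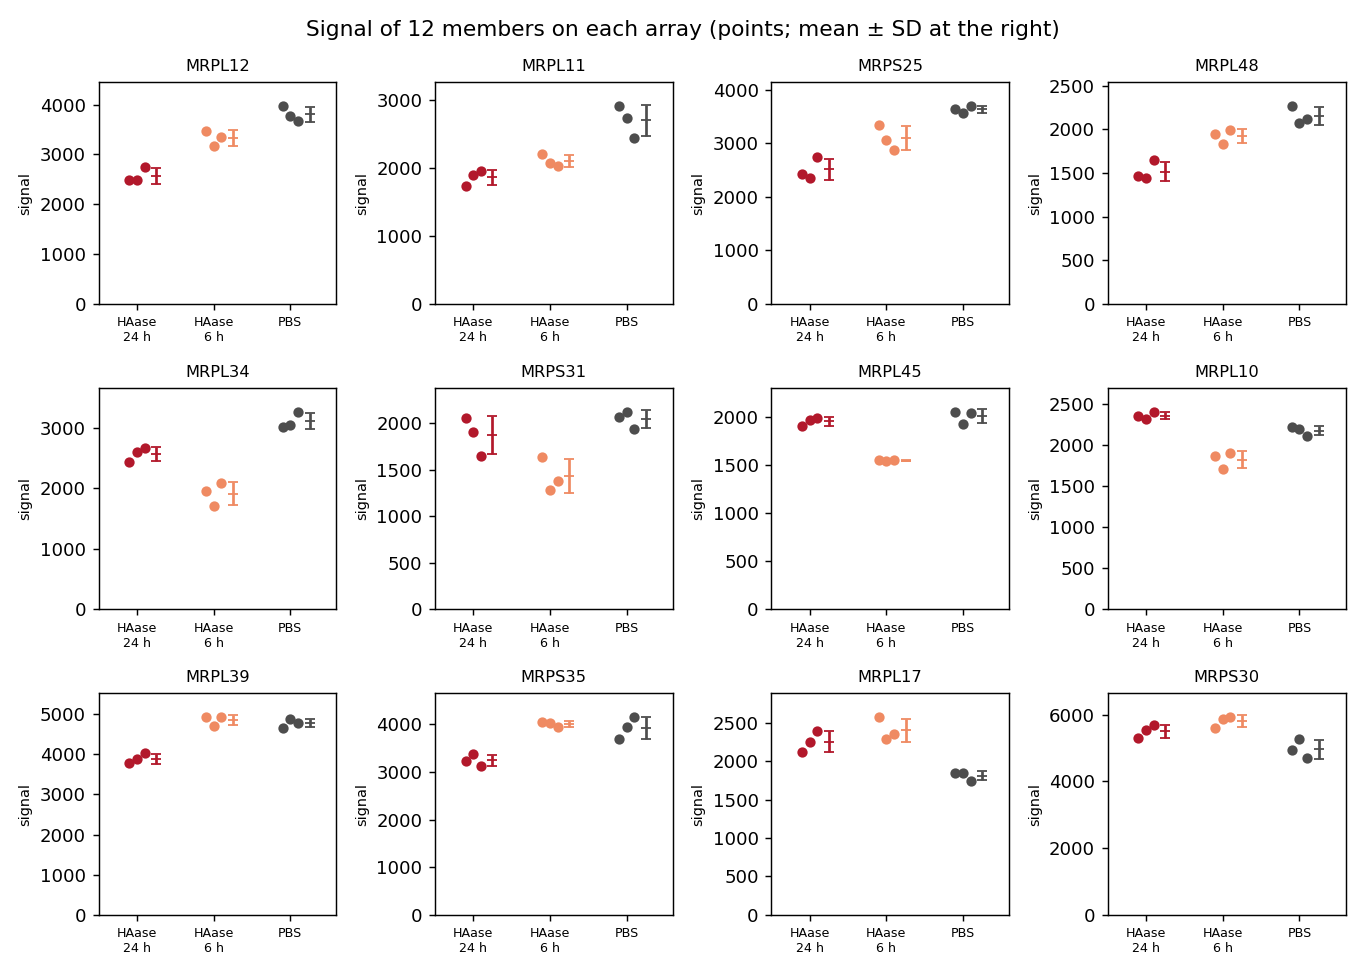
Deposited signal (y axis, linear and starting at 0) of 12 members on each array, in HAase 24 h, HAase 6 h and PBS from left to right (x axis), with points for arrays and the mean with its SD beside them. MRPL12, MRPS25 and MRPL48 are lowest at HAase 24 h and highest in PBS, with HAase 6 h between, MRPL34, MRPS31, MRPL45 and MRPL10 are lowest at HAase 6 h, MRPL39 and MRPS35 are low at HAase 24 h alone, and MRPL17 is above PBS at both times.

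The 3 paralogues of bacterial S18 differed in their values. MRPS18B fell by 0.29 ± 0.05 at 6 h (limma adjusted p = 0.00312), with -0.11 ± 0.05 at 24 h (limma adjusted p = 0.151). MRPS18C gave 0.08 ± 0.08 at 24 h and -0.07 ± 0.08 at 6 h, and MRPS18A gave -0.002 ± 0.08 and 0.10 ± 0.08. None of these 4 values passed the test. MRPS18A had another probe set nearly as bright, with mean signals of 1155 and 1186. It stood at -0.008 at 24 h, 0.32 at 6 h and -0.33 between the times, and was not tested by itself.

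The 24 h and 6 h fold changes share the PBS arrays, so the HAase groups were compared directly, as HAase 24 h minus HAase 6 h. No PBS array was taken at 6 h, so length of treatment and time of harvest cannot be told apart here. Here 12 members were lower at 24 h and 10 higher, against 13.3% and 19.7% of all genes tested, of which 4.03% differed 2-fold. Arrays did not overlap for 34 members, or 45.3%, beside 45.9% of all genes. The median difference of members was -0.03 on the log2 scale, against 0.05 over all genes. It was -0.03 in the large and -0.01 in the small subunit. The subunits held members of either kind: 8 large and 4 small subunit genes were lower at 24 h, and 5 of each were higher. The count of 12 lower members became 3 with all probe sets of a gene averaged, and 7 without HAase 6 h replicate 2, HAase 6 h replicate 3 or HAase 24 h replicate 2. Without HAase 24 h replicate 1 the median difference of members was 0.0251, and with all probe sets of a gene averaged it was 0.0056.

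Of the members higher at 24 h than at 6 h, MRPL34 differed by 0.43 ± 0.08 (limma adjusted p = 0.00563), MRPS31 by 0.38 ± 0.11 (limma adjusted p = 0.0322), MRPL10 by 0.37 ± 0.06 (limma adjusted p = 0.00182) and MRPL45 by 0.34 ± 0.05 (limma adjusted p = 0.00135). MRPS33, MRPS10, MRPS34 and MRPL18 differed by 0.29 to 0.33. MRPS10, a head protein homologous to bacterial S10, had 4168, 4640 and 4460 at HAase 24 h, 3706, 3511 and 3390 at HAase 6 h, and 4280, 4118 and 4284 in PBS. MRPS34, a mitochondria-specific protein of the small subunit body, had 1135, 1207 and 1212 at HAase 24 h, 1010, 903 and 926 at HAase 6 h, and 1176, 1087 and 1080 in PBS. In MRPS10 and MRPS34 the HAase 6 h arrays lay below all others, while those of HAase 24 h overlapped PBS. Further probe sets of MRPS10 gave smaller differences between the times, 0.09 and 0.12. With all its probe sets averaged MRPS10 differed by 0.18 and was not called (limma adjusted p = 0.137).

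Among the members lower at 24 h than at 6 h, MRPL12 differed by -0.37 ± 0.07 (limma adjusted p = 0.00371), MRPL48 by -0.34 ± 0.07 (limma adjusted p = 0.00693), MRPL39 by -0.32 ± 0.05 (limma adjusted p = 0.00207) and MRPS35 by -0.30 ± 0.06 (limma adjusted p = 0.00577). MRPL20 and MRPL32, homologues of bacterial proteins, were lower at 24 h than at 6 h by values of -0.26 ± 0.07 and -0.22 ± 0.06, without a call against PBS at either time. These calls were lost under 8 (MRPL20) and 7 (MRPL32) of the 19 alternatives, and with its dim further probe sets averaged in, MRPL20 stood at 0.12. MRPL32 had 8284, 7966 and 7657 at HAase 24 h, 8805, 9389 and 9591 at HAase 6 h, and 8114, 8662 and 8329 in PBS. Its HAase 6 h arrays were the highest and those of HAase 24 h overlapped PBS.

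**Figure D4:**
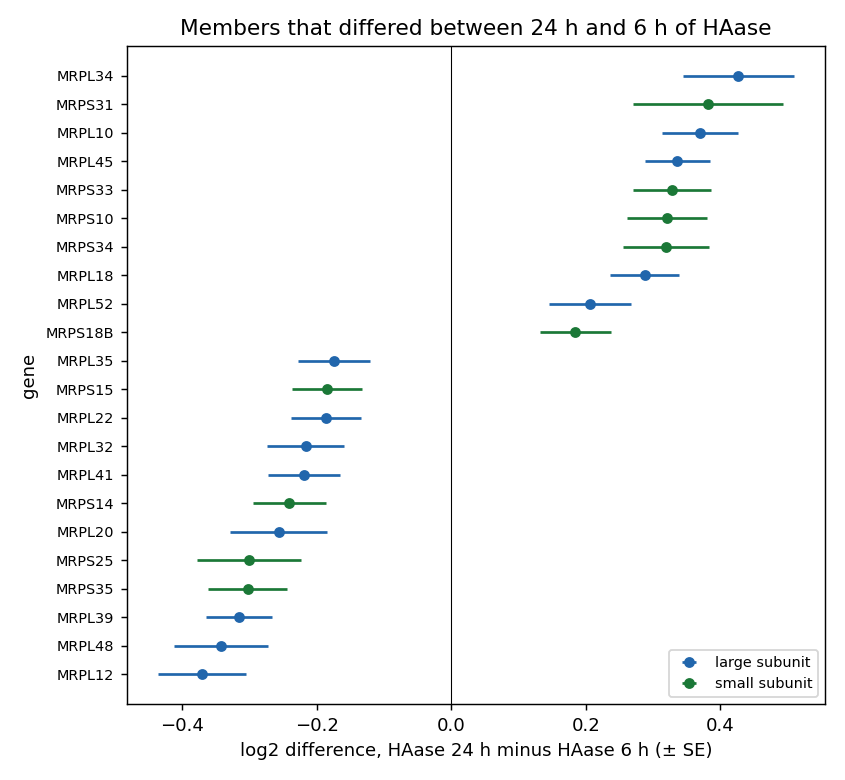
Log2 difference, HAase 24 h minus HAase 6 h, with its standard error (x axis), of the 22 members past an adjusted p of 0.05 (y axis, by symbol), with large subunit genes in blue and small subunit genes in green. The 10 genes right of 0 reach 0.43 (MRPL34), the 12 left of 0 reach -0.37 (MRPL12), and both subunits lie on both sides.

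The genes that work with the mitoribosome were described in the same way. Their counts stand beside 22.8% of all genes lower and 17.5% higher at 24 h. At 6 h the shares of all genes were 27.4% lower and 15% higher. Of 32 complex I subunits, the enzyme that takes several of its core parts from the mitoribosome, 29 fell at HAase 24 h and 13 at HAase 6 h, none rose, and the medians were -0.42 and -0.16. Between the times, 22 of them (68.8%) were lower at 24 h, beside 13.3% of all genes, with a median difference of -0.23. NDUFA3, an accessory subunit, fell by 0.94 ± 0.11 at 24 h and by 0.38 ± 0.11 at 6 h, and NDUFS7, a core subunit that carries an iron-sulphur cluster, by 0.90 ± 0.09 and 0.37 ± 0.09. By contrast in counts, 0 of 54 cytosolic ribosomal protein genes fell at either time and 2 rose at 24 h, RPS27L by 0.24 ± 0.04 and RPL36 by 0.21 ± 0.05. At an unadjusted p under 0.05, 4 of the 54 were called at 24 h and 0 at 6 h in limma. Their medians were 0.02 and 0.01.

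Of 16 mitochondrial translation factors tested, 5 fell and 1 rose at HAase 24 h, and 9 fell and 1 rose at HAase 6 h. The shares that fell were 31.2% and 56.2%, beside 22.8% and 27.4% of all genes. LRPPRC, which stabilises mitochondrial mRNAs, fell by 0.35 ± 0.04 at 24 h (limma adjusted p = 0.000373), with -0.01 ± 0.04 at 6 h. TACO1, a translational activator of a cytochrome oxidase subunit, fell by 0.39 ± 0.06 at 24 h and by 0.43 ± 0.06 at 6 h, and MTIF2, the initiation factor, fell at 6 h by 0.50 ± 0.05 (limma adjusted p = 0.000131). Among the other ribosomal proteins without an MRP symbol, 1 of 4 rose and 1 fell at 24 h and 1 fell at 6 h. PTCD3, an RNA-binding protein, fell by 0.20 ± 0.05 at 24 h and by 0.18 ± 0.05 at 6 h. DAP3, a GTP-binding protein of the small subunit, rose by 0.21 ± 0.05 at 24 h (limma adjusted p = 0.0131), with 0.05 ± 0.05 at 6 h.

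Factors that assemble the mitoribosome or modify its RNA did not share the members' lower median. Of 25 tested, 5 rose and 2 fell at HAase 24 h, and 3 rose and 6 fell at HAase 6 h, with medians of 0.05 and -0.04. At 24 h, 20% were higher and 8% lower, beside 17.5% and 22.8% of all genes. At 6 h, 12% were higher and 24% lower, near the 15% and 27.4% of all genes. TFB1M, which methylates the small ribosomal RNA, rose by 0.58 ± 0.07 at 24 h (limma adjusted p = 0.000351), with -0.09 ± 0.07 at 6 h. YBEY, an endoribonuclease, fell by 0.50 ± 0.06 at 24 h and by 0.93 ± 0.06 at 6 h. MPV17L2, a membrane protein needed for assembly, fell by 0.74 ± 0.08 at 6 h (limma adjusted p = 0.000245), with 0.03 ± 0.08 at 24 h. Of 16 genes that copy or process mitochondrial DNA and RNA, 4 rose and 2 fell at 24 h, and 5 rose and 2 fell at 6 h. The shares that rose were 25% and 31.2%, beside 17.5% and 15% of all genes. At either time 12.5% fell, beside 22.8% of all genes at 24 h and 27.4% at 6 h. TFAM, which packages mitochondrial DNA, rose by 0.35 ± 0.06 at 24 h and by 0.43 ± 0.06 at 6 h, and POLRMT, the polymerase that MRPL12 can bind, rose by 0.42 ± 0.09 at 24 h (limma adjusted p = 0.00746).

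Some nuclear regulators of mitochondrial genes moved further than any member. PPARGC1A, the coactivator of mitochondrial biogenesis, averaged 343 at HAase 24 h, 335 at HAase 6 h and 1904 in PBS. It was 5.34-fold lower at 24 h (limma adjusted p = 1.33e-06) and 5.48-fold lower at 6 h (limma adjusted p = 1.77e-06). PPARGC1B, its relative, fell by 1.04 ± 0.09 at 24 h and by 1.05 ± 0.09 at 6 h. MYC, a factor that drives ribosome genes, rose by 0.77 ± 0.04 at 24 h and by 1.35 ± 0.04 at 6 h. In all, 3 of 12 such regulators (25%) rose and 4 (33.3%) fell at each time. Of all genes, 17.5% rose and 22.8% fell at 24 h, and 15% and 27.4% at 6 h. A 2-fold change was called for 2 of the 12 at 24 h and 3 at 6 h, beside 8.25% and 6.6% of all genes.

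More than 1 probe set was present for 37 members. In called members the further probe sets mostly had the same sign, and members without a call were not counted. Signs alone were counted, and sizes could differ. In MRPS22, called at -0.24 at 24 h, further probe sets with mean signals of 3165, 4924 and 4767 gave -0.03, -0.03 and -0.13. In MRPS14 the further probe set gave -0.69 at 24 h, beside -0.45 for the one used. MRPL2, which was not called, had a second probe set nearly as bright, with mean signals of 331 and 348. That probe set stood at -0.72 at 24 h, beside 0.08 for the one used, so the direction of MRPL2 is uncertain. At HAase 24 h, 13 called members had 26 further probe sets above the control level, of which 23 had the sign of the one used. The other 3 were in MRPS11, MRPS16 and MRPS23. At HAase 6 h, 23 of 25 further probe sets of 13 called members had the same sign, with the others in MRPS30 and MRPS5. For HAase 24 h minus HAase 6 h it was 12 of 17 in 9 members, with opposite signs in MRPL35, MRPL41 and MRPS25. The second-brightest probe set of MRPS31 gave -0.47 at 6 h, beside -0.51 for the one used. MRPL2, MRPS5, MRPS11, MRPS16 and MRPS22 are named here for their probe sets and were chosen after their values were seen.

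The arrays were alike in scale, with trimmed means between 500.07 and 500.075. Counts of calls leaned on single arrays: without HAase 24 h replicate 1, PBS replicate 1 or PBS replicate 2, 19, 21 and 21 members fell at 24 h. These are 25.3%, 28% and 28% of the members, beside 20.1%, 19.4% and 19.4% of all genes in the same fits. Without HAase 6 h replicate 2 or PBS replicate 2, 23 members fell at 6 h, or 30.7%, beside 23.6% and 22.2% of all genes. The difference of 3′ and 5′ GAPDH control probe sets averaged -0.11 at HAase 24 h, -0.02 at HAase 6 h and 0.01 in PBS on the log2 scale. That of ACTB was 1.57, 1.61 and 1.38 at HAase 24 h, 1.46, 1.499 and 1.14 at HAase 6 h, and 1.67, 1.56 and 1.69 in PBS, so all HAase 6 h arrays lay below all PBS arrays. The part of these RNA quality measures in the results was not tested. Of 7 adipocyte markers 7 were lower at HAase 24 h and 5 at HAase 6 h. Their summed signal was 28970 to 33580 at HAase 24 h, 44690 to 46870 at HAase 6 h and 56740 to 58780 in PBS, and their part in the members' results was not tested. Of the 3 liposarcoma genes, MDM2 and CDK4 lay above the control level on all 9 arrays and were not called changed. HMGA2 lay above it on 7 and averaged 1643 at HAase 24 h, 725 at HAase 6 h and 51.0 in PBS, so it was higher after HAase at both times (limma adjusted p = 3.16e-08 and 1.44e-07). Of the epithelial markers, EPCAM, KRT19 and CDH1 lay above the control level on 0 arrays, KRT18 on 2 and KRT8 on 9, with KRT8 means of 146 at HAase 24 h, 174 at HAase 6 h and 133 in PBS and no call. The summed epithelial signal was 191.5 to 259.8 at HAase 24 h, 191.5 to 289.2 at HAase 6 h and 170.2 to 247.9 in PBS. Of the 3 leukocyte markers with a probe set, PTPRC lay above the control level on 0 arrays, CD14 on 2 and CD3E on 3, with sums of 73.41 to 105.2 at HAase 24 h, 28.39 to 67.93 at HAase 6 h and 40.42 to 55.79 in PBS. Of the 4 endothelial markers, CDH5 lay above it on 0 arrays, KDR on 2, VWF on 3 and PECAM1 on 9, with sums of 414.5 to 432.5 at HAase 24 h, 370.4 to 418.3 at HAase 6 h and 272.1 to 333.9 in PBS. The part of HMGA2 and of these 3 marker lists in the members' results was not tested. PECAM1 was the single endothelial marker tested and was higher after HAase, with 349 at 24 h, 316 at 6 h and 236 in PBS.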

How the data were processed

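LiSa-2 RNA was hybridised to Affymetrix Human Genome U133 Plus 2.0 arrays, 9 in all. The authors deposited a linear signal intensity for each probe set, taken from CHP files according to the series design text. Their algorithm is not given in the sources used here, and the array files name no genome build.

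Of 54675 probe sets, 41097 carry a single symbol in the platform annotation. Signals were used as log2(signal + 16) without further normalization, so a log2 fold change is on that scale. Genes below the 30th percentile of mean signal (about 32.2) were left out, and 13842 were tested. All 9 arrays entered a limma 3.58.1 model (lmFit and eBayes, R 4.3.3) with 1 mean for each group, and p-values were adjusted by Benjamini-Hochberg within each of 3 comparisons over all genes tested. A call is an adjusted p under 0.05, and the error given with a log2 fold change is its standard error. Any p here is limma's. The script was tested on simulated data in which 200 genes were changed at 24 h, far fewer than were called in the real data. It recovered 2 of 100 changes of 0.25 and 36 of 100 changes of 0.5 on the log2 scale. There were 2 false calls. With few changed genes the adjusted p is stricter, and the changed genes were drawn from all those above the filter. These rates therefore do not give the recovery of members in the real data. A gene without a call may still have changed. The number of arrays limits the precision.

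Named members are up to 10 largest rises and 10 largest falls among called members per comparison, plus MRPS18A, MRPS18B, MRPS18C, MRPS30, MRPL12 and MRPL58. Of each related list up to 4 called genes per comparison were named. The members and all lists, the structural regions included, were chosen with earlier results of these data known. No test was made over a list. Promoter sequences and gene symbols are from RefSeq (GRCh38.p14).

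Alternatives were pseudocounts of 1 and 64, no filter or a 50th percentile filter, quantile or median scaling, the mean of a gene's probe sets, trended and robust variance, only the groups compared, a replicate block and leaving out each array. Deviations of same-numbered arrays from their group means correlated at -0.049 to 0.037, below the 0.1 set for pairing, so arrays were treated as unpaired.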

Additional observations from a re-analysis of the deposited data

Results flagged for a closer look

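For 21 named members, HAase 24 h and HAase 6 h differed by limma's test of HAase 24 h minus HAase 6 h. Length of treatment and time of harvest cannot be told apart in it. Of all members 16% were lower and 13.3% higher at 24 h, beside 13.3% and 19.7% of all genes tested. MRPS15 (-0.185, limma adjusted p = 0.0294) was also called but fell outside the naming rule. On the log2 scale the difference was positive for MRPL34 (0.43), MRPS31 (0.38), MRPL10 (0.37), MRPL45 (0.34), MRPS33 (0.33), MRPS10 (0.32), MRPS34 (0.32), MRPL18 (0.29), MRPL52 (0.21) and MRPS18B (0.18). It was negative for MRPL12 (-0.37), MRPL48 (-0.34), MRPL39 (-0.32), MRPS35 (-0.30), MRPS25 (-0.30), MRPL20 (-0.26), MRPS14 (-0.24), MRPL41 (-0.22), MRPL32 (-0.22), MRPL22 (-0.19) and MRPL35 (-0.17). Under the 19 alternatives the call was lost in 10 for MRPL52, 9 for MRPL22, 8 each for MRPL20, MRPS18B and MRPS31, 7 for MRPL32 and 5 for MRPS25. For MRPL12, MRPL39, MRPL41, MRPS10 and MRPS14 it was lost in 1 each, the mean of probe sets. The call of MRPL35 between the times was not followed through the alternatives. Groups of 3 are too small for a check of single stray arrays. Other probe sets of MRPL35, MRPL41 and MRPS25 gave the opposite sign between the times, such as 0.27 and 0.36 for MRPL35 and 0.07 for MRPS25.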

How the results depend on the processing

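The number of members lower against PBS stayed within 1.5 times of 32 at 24 h and of 35 at 6 h under all settings other than leaving out single arrays. The share was lowest with the mean of probe sets, at 29.3% at 24 h and 33.3% at 6 h, beside 19% and 21.2% of all genes. It was highest with trended and robust variance, at 49.3% and 50.7%, beside 24.3% and 29.1%. As reported it was 42.7% and 46.7%, beside 22.8% and 27.4%. The 5 rises at 24 h became 2 without the filter, 3 with quantile normalization, 1 with equal array medians, 2 with the mean of probe sets and 2 with only the groups compared. The 4 rises at 6 h became 2 with quantile normalization and 2 with the mean of probe sets. The 12 members lower at 24 h than at 6 h became 7 without the filter, 3 with the mean of probe sets and 6 with only the groups compared. With the mean of probe sets the small subunit median at 24 h was -0.0521 and the members' median at 6 h was -0.13, and with quantile normalization the small subunit median at 6 h was -0.22. Of the members called at 24 h, 96.2% were lower with equal array medians, against 86.5% as reported. Of all genes called in these fits, 57.8% and 56.5% were lower. Of the members called between the times, 27.3% were lower with the mean of probe sets, against 54.5%. Of all genes called there, 44.1% and 40.2% were lower.

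With the replicate block, 27 members fell and 1 rose at 24 h, 27 fell and 3 rose at 6 h, and 7 were lower and 8 higher between the times. These are 36% and 1.33%, 36% and 4%, and 9.33% and 10.7% of the members. Of all genes, 21.3% fell and 16.2% rose at 24 h and 25.4% and 13.9% at 6 h, and 12.1% were lower and 17.6% higher between the times. 3 of 9 arrays correlated best with an array of their own number.

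Leaving out single arrays gave 19 to 30 lower and 1 to 4 higher at 24 h, 23 to 33 lower and 2 to 4 higher at 6 h, and 7 to 11 lower and 7 to 10 higher between the times. Of all genes in these fits, 19.4% to 22.4% were lower and 15.3% to 16.9% higher at 24 h. At 6 h these shares were 22.2% to 27.1% and 12.9% to 14.9%, and between the times 11.1% to 12.8% and 15.6% to 19%. The medians ranged from -0.15 to -0.12 at 24 h and from -0.19 to -0.14 at 6 h. Between the times they ranged from -0.0391 to 0.0251 for members, -0.0486 to 0.0192 for the large and -0.0275 to 0.0315 for the small subunit, above 0 without HAase 24 h replicate 1. At 24 h, MRPS18A changed sign with quantile normalization (0.0168), and without single arrays it ranged from -0.0804 to 0.0667, above 0 without PBS replicate 1, PBS replicate 2 or HAase 24 h replicate 1. MRPS30 changed sign with the mean of probe sets (-0.14). Between the times, MRPL58 changed sign with equal array medians (-0.0049), and without single arrays it ranged from -0.10 to 0.0728, below 0 without HAase 6 h replicate 2, HAase 24 h replicate 2 or HAase 24 h replicate 3. MRPL20 changed sign with the mean of probe sets (0.12). The rises of MRPS2 and MRPS23 at 24 h were each lost under 13 of 19 alternatives. The cause of these shifts was not tested. Fewer arrays also leave fewer degrees of freedom.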
